A study of Mus musculus with 6 samples.

Results

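Integrins on platelets and blood cells are switched on from inside the cell, and 9 genes of that switch were followed in mouse bone marrow: Rasgrp2, Rap1a, Rap1b, Fermt3, Apbb1ip, Rasa3, Itga6, Itga2 and Itgb1. They were chosen by name, as genes of Rap1, kindlin and integrin activation and as subunits of laminin and collagen receptors, out of 46603 genes counted in each library. All 9 were found in the count files, by symbol in the GENCODE M21 annotation of GRCm38. RNA came from whole, unsorted marrow spun out of the femurs and tibiae of C57/Bl6 mice aged 8 months. The groups were 3 NM1 KO mice, which lack nuclear myosin 1, and 3 NM1 WT mice, with 1 library per mouse. Nuclear myosin 1 is the nuclear isoform of myosin 1c, a motor protein made from the Myo1c gene. The labels give no allele, no clone and no treatment beyond the genotype, and the title places the comparison in a study of platelet activation and the immune response.

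Inside-out activation starts when an agonist receptor raises calcium and diacylglycerol, which open the exchange factor CalDAG-GEFI, the product of Rasgrp2. CalDAG-GEFI loads the small GTPase Rap1 with GTP, and RASA3 is the GTPase-activating protein that keeps platelet Rap1 off at rest. Active Rap1 brings talin to the tail of the integrin beta subunit, in leukocytes with the help of the adaptor RIAM (Apbb1ip), and kindlin-3 (Fermt3) binds the same tail next to talin. Loss of kindlin-3 or of CalDAG-GEFI causes bleeding in mice and in people. Itgb1 encodes the beta1 subunit, which pairs with alpha6 (Itga6) as a laminin receptor and with alpha2 (Itga2) as a collagen receptor.

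Rap1a and Rap1b encode near-identical proteins, so the sequences were compared first to see how far their reads can be told apart. Their coding sequences in the GENCODE M21 transcripts, on chromosome 3 for Rap1a and chromosome 10 for Rap1b, were 552 bases each and matched at 451 positions (81.7%). The longest stretch without a difference, within the coding sequences and across the whole transcripts, was 20 bases. The 80 coding bases around it, positions 49 to 128 from the first base of the start codon, are shown with the 10 differing bases in capitals.
Rap1a: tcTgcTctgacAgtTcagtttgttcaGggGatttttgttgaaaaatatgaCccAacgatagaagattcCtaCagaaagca
Rap1b: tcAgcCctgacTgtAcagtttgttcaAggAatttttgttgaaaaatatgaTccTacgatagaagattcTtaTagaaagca
A read of either transcript longer than 20 bases therefore meets at least 1 difference, though the read length is not stated in the sources at hand. The processed pseudogene Rap1a-ps2 shared a run of 58 bases with Rap1a and held 0 counts in all 6 libraries.

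Promoters of 7 of the 9 genes were in the RefSeq table of GRCm38.p6, and Rap1a and Itga6 had no entry. Rap1b and Itgb1 moved together over the libraries (Pearson's r = 0.949), both highest in NM1 KO 2. This was not particular to the pair. Itga6 (r = 0.965) and Fermt3 (0.922) also followed Itgb1, and Rap1a, Fermt3, Rasa3 and Itga6 were also highest in NM1 KO 2. Apbb1ip was lowest there and was the single gene of the 9 with a negative fold change. The 250 bases before the start site of Rap1b, Itgb1 and Apbb1ip are shown. Capitals mark matches on either strand to 5 short motifs, chosen after the genes' values and sequences were known: the GATA core (AGATAA or TGATAA), the RUNX core (TGTGGT), the ETS core (AGGAAG), the GC box (GGGCGG) and the cyclic AMP response element (TGACGTCA).
Rap1b, chr10:117845975-117846224, minus strand: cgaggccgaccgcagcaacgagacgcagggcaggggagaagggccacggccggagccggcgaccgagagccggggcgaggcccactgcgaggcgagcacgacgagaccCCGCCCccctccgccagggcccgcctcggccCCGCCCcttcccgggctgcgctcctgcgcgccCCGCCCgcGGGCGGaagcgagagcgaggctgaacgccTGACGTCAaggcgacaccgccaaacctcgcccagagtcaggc
Itgb1, chr8:128685404-128685653, plus strand: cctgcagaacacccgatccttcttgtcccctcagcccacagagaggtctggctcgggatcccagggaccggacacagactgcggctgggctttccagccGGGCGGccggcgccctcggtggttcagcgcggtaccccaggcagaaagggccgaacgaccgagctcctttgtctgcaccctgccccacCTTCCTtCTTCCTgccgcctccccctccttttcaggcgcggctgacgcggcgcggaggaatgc
Apbb1ip, chr2:22774077-22774326, plus strand: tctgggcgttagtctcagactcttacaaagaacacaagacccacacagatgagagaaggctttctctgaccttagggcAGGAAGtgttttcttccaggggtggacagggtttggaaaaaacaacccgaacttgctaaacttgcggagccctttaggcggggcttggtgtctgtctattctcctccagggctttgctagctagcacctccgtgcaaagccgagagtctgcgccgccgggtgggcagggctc
The Rap1b window, at 77.2% G and C (median of all windows 52.4%), held 4 GC boxes. Of all 32851 windows of this length, 32.7% contain at least 1 GC box. Also in the Rap1b window was 1 cyclic AMP response element 42 bases before the start, which 1.55% of windows contain. The Itgb1 window (68.0% G and C) held 1 GC box and 2 ETS cores that did not overlap, a motif present in 29.5% of windows. The Apbb1ip window (54.8% G and C) held 1 ETS core, 172 bases before the start. None of the 8 windows of the 7 genes (Rasgrp2 has 2 start sites) held a GATA core, which 16.6% of all windows contain, and the RUNX core (14.0% of windows) had 2 matches in the Fermt3 window and none in the others. Distances are counted from the RefSeq start site, which for Rap1b and Apbb1ip lies downstream of the start of the GENCODE M21 gene, so the cyclic AMP response element of Rap1b and the ETS core of Apbb1ip lie inside those GENCODE gene spans. A match is a description of the letters, and no match says nothing about a factor.

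Library totals ran from 15145052 to 22618802 counts, with all 3 NM1 KO libraries deeper than the NM1 WT ones. Myo1c itself had 73.8, 59.1 and 59.7 CPM (library-scaled counts, with TMM factors) in NM1 KO 1 to 3, against 89.8, 115 and 102 CPM in NM1 WT 1 to 3. Its log2 fold change was -0.67 (edgeR quasi-likelihood test, adjusted p = 0.0516), and gene counts add up all isoforms, so the knockout of the nuclear isoform cannot be checked this way. The library NM1 WT 2 stood apart, since its correlation across genes, which are not replicates, was 0.969 with NM1 KO 1 and 0.957 with each of the other NM1 WT libraries. Transcripts of 4 Y-linked genes were found in NM1 KO 1, NM1 KO 2 and NM1 WT 2 (158 to 199 CPM summed) and were at 0 counts in the other 3 libraries, so the mix differed between the genotypes. Markers of the marrow's blood lineages were present, with summed levels of 30408 to 39457 CPM in NM1 KO mice and 39290 to 53422 CPM in NM1 WT for 10 neutrophil genes. All 10 had negative log2 fold changes (median -0.47), 5 of them at an unadjusted p under 0.05, as did 8.32% of all tested genes. In the edgeR quasi-likelihood fit 0 passed the threshold, while DESeq2 called 5 lower, and 394 of all 15069 genes. The 10 monocyte and macrophage markers summed to 1306 to 1524 CPM in NM1 KO mice and 1341 to 1575 CPM in NM1 WT. Most of this list lay on the negative side, 6 of the 10, with a median log2 fold change of -0.21. At an unadjusted p under 0.05, 4 were lower and 2 higher, against 8.32% and 8.44% of all tested genes. The 2 higher ones, Mrc1, the mannose receptor gene, and Vcam1, an adhesion molecule gene, rose (log2 fold changes 1.46 and 1.39, adjusted p = 0.0396 each). Of all tested genes 0.591% rose. Of this list 1 gene rose with NM1 KO 1 left out and 0 with NM1 KO 2, NM1 WT 1 or NM1 WT 3 left out.

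Of 15 platelet and megakaryocyte markers 12 rose and 0 fell, against 0.591% and 0.186% of all tested genes. Platelet markers were known to differ from earlier work on these data, so this count is a description. Their summed levels were 2243 to 5143 CPM in NM1 KO mice and 1155 to 1398 CPM in NM1 WT. No marker of this set was at 0. The sum was highest in NM1 KO 2 (5143 CPM) and did not overlap between genotypes. Adjusted for the presence of Y-linked transcripts 4 of the 15 rose, and with limma-voom 4. With NM1 KO 2 left out 5 rose, with NM1 WT 1 left out 2, and with NM1 WT 3 left out 3. The 10 stromal markers summed to 1216 to 2041 CPM in NM1 KO mice and 554 to 664 CPM in NM1 WT, and 5 of them rose (with the same libraries left out, 2, 1 and 2). The 10 endothelial markers summed to 182 to 246 CPM in NM1 KO mice and 119 to 177 CPM in NM1 WT. All 10 had positive log2 fold changes (median 0.84), 6 of them at an unadjusted p under 0.05, as did 8.44% of all tested genes. In the edgeR quasi-likelihood fit 0 passed the threshold, while DESeq2 called 6 higher, and 2.70% of all genes. Among 10 skeletal muscle markers Tnnc2 was at 0 in every library, and the sum was 60.7 to 75.7 CPM in NM1 KO mice and 17.1 to 27.4 CPM in NM1 WT. Of 8 tested muscle markers 3 rose, against 2 with NM1 KO 2 left out, 1 with NM1 KO 1 or NM1 KO 3 left out and 0 with NM1 WT 1 left out. Of 10 erythroid markers 9 had positive log2 fold changes (median 0.32), 5 of them at an unadjusted p under 0.05, and 0 passed the threshold. Of 10 T and NK cell markers 1 rose (Cd4, adjusted p = 0.0302) and 0 fell, and of 10 B cell markers 0 rose and 0 fell. Platelets, endothelium, stroma, neutrophils and macrophages can all carry integrins, and the part of these or other marrow cells in the values that follow was not tested. In whole marrow, a different share of cells of a type and a different amount of RNA per cell cannot be told apart.

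Of the 9 genes, 1 rose in NM1 KO marrow, Itga6, and 0 fell, at an adjusted p under 0.05 over all 15069 tested genes. Across all tested genes 0.591% rose and 0.186% fell. The median log2 fold change of the 9 genes was 0.44, and 8 of the 9 were positive, against a median of 0.00 and 50.2% positive among all tested genes. At an unadjusted p under 0.05, 6 of the 9 were higher and 0 lower, against 8.44% and 8.32% of all tested genes. In 4 of the 9 (Rasa3, Itga6, Itga2 and Itgb1) every NM1 KO value lay above every NM1 WT value, as it did for 10.8% of all tested genes, while 9.75% lay the other way round without overlap. Itga2 entered the test through its NM1 KO counts, so it had to be higher there to be counted. Since the genes were named with earlier results of these mice known, these counts are descriptions.

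**Figure D1:**
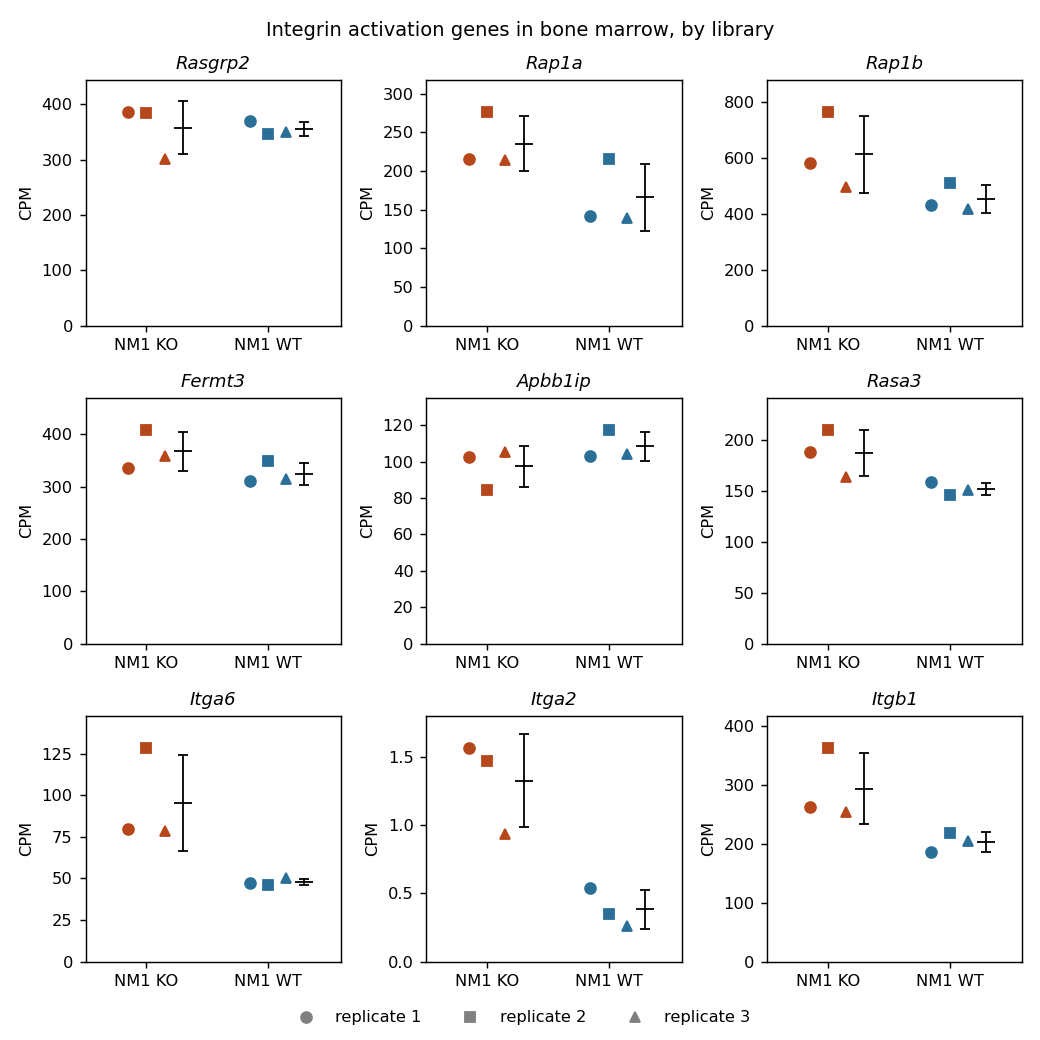
Level of each of the 9 genes in CPM (vertical axis from 0) in the 3 NM1 KO and 3 NM1 WT libraries, with symbols for the replicate number and the mean ± SD beside each group. All NM1 KO points lie above all NM1 WT points in Rasa3, Itga6, Itga2 and Itgb1, and the NM1 KO 2 library (square) is the highest of all 6 in Rap1a, Rap1b, Fermt3, Rasa3, Itga6 and Itgb1.

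Per length of the principal transcript, the 9 genes covered a wide range of levels. In NM1 KO marrow the order was Rap1b (225 ± 50.7 CPM per kb, SD, n = 3 here and below), Rasgrp2 (156 ± 21.1), Fermt3 (142 ± 14.5), Rap1a (97.8 ± 14.8), Itgb1 (76.9 ± 15.8), Rasa3 (42.5 ± 5.22), Apbb1ip (35.1 ± 4.10), Itga6 (22.1 ± 6.64) and Itga2 (0.187 ± 0.0477). In NM1 WT marrow Rap1b (166 ± 18.1 CPM per kb) and Rasgrp2 (155 ± 5.42) again led, and Itga6 (11.1 ± 0.465) and Itga2 (0.0541 ± 0.0202) again came last. By mean ± SD, Rap1b overlapped Rasgrp2, and Rap1a overlapped Itgb1, in both genotypes, while Rasgrp2 with Fermt3 and Rasa3 with Apbb1ip overlapped in NM1 KO but not in NM1 WT. Rasa3 and Apbb1ip were the one neighbouring pair whose order differed, with Apbb1ip (39.0 ± 2.86 CPM per kb) above Rasa3 (34.5 ± 1.41) in NM1 WT. Talin-1 (Tln1), the protein that the pathway brings to the integrin, had 97.4 ± 2.26 CPM per kb in NM1 KO and 97.9 ± 7.28 in NM1 WT.

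At the exchange step, no difference in Rasgrp2 was detectable. Rasgrp2 (ENSMUSG00000032946, chromosome 19, 6399340 to 6415216, plus strand) had 387, 385 and 302 CPM in NM1 KO 1 to 3, against 370, 347 and 351 CPM in NM1 WT 1 to 3. The groups overlapped, with NM1 KO 3 the lowest and NM1 KO 1 the highest of the 6. Its log2 fold change was 0.01 (SE 0.13, 95% confidence interval -0.28 to 0.29, adjusted p = 0.985), and the sign turned in 8 of 20 alternative analyses.

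The GTPase-activating protein gene Rasa3 (ENSMUSG00000031453, chromosome 8, 13566948 to 13677603, minus strand) had 188, 210 and 164 CPM in NM1 KO 1 to 3, against 159, 146 and 151 CPM in NM1 WT 1 to 3. All NM1 KO values were above all NM1 WT values, though by little at the edge (164 against 159 CPM), and at a log2 fold change of 0.30 (SE 0.13) the gene missed the threshold (adjusted p = 0.267). The ratio of Rasgrp2 to Rasa3 counts, which needs no scaling between libraries, was 2.06, 1.84 and 1.84 in NM1 KO and 2.33, 2.37 and 2.32 in NM1 WT. On the log2 scale it was 0.30 lower in NM1 KO (difference -0.30). The groups did not overlap, and the exact two-sided permutation test gave p = 0.1, the smallest that 3 against 3 mice allow (0.175 adjusted over 7 ratios). Exchange factor counts thus stood lower relative to this GTPase-activating protein in all 3 NM1 KO mice. Against Sipa1, the leukocyte Rap1 GTPase-activating protein, the Rasgrp2 ratio overlapped between genotypes (1.75 ± 0.346 in NM1 KO, 1.79 ± 0.351 in NM1 WT, SD, n = 3 each, exact permutation p = 1).

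The 2 GTPase genes had similar differences. Rap1a (ENSMUSG00000068798, chromosome 3, 105727267 to 105801336, minus strand) had 215, 277 and 214 CPM in NM1 KO 1 to 3, against 142, 216 and 140 CPM in NM1 WT 1 to 3. The NM1 WT 2 value lay within the NM1 KO range, and the other NM1 WT values lay below it. The log2 fold change was 0.51 (SE 0.18, adjusted p = 0.192). Leaving out NM1 KO 2 gave 0.38 (adjusted p = 0.575), and leaving out NM1 WT 2 gave 0.75 (adjusted p = 0.0415). Over the 20 alternatives the adjusted p ran between 0.0112 and 0.575.

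Rap1b (ENSMUSG00000052681, chromosome 10, 117813871 to 117846035, minus strand), the main Rap1 of platelets, had 580, 764 and 494 CPM in NM1 KO 1 to 3, against 433, 508 and 416 CPM in NM1 WT 1 to 3. NM1 KO 2 was far above the rest and NM1 KO 3 lay below NM1 WT 2, so the groups overlapped. The log2 fold change was 0.44 (SE 0.16, adjusted p = 0.209), and 0.25 without NM1 KO 2 (adjusted p = 0.651, the highest of 20 alternatives, of which the lowest gave 0.0376). Counts of Rap1b ran at 2.59 ± 0.248 times those of Rap1a in NM1 KO and 2.80 ± 0.385 times in NM1 WT (SD, n = 3 each). The ratio did not differ beyond the spread between mice (exact permutation p = 0.5, 0.583 adjusted over the 7 ratios).

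The adaptor and kindlin genes lay near 0 on the fold change scale. Apbb1ip (ENSMUSG00000026786, chromosome 2, 22774094 to 22875653, plus strand) had 102, 84.4 and 105 CPM in NM1 KO 1 to 3, against 103, 117 and 104 CPM in NM1 WT 1 to 3. The groups overlapped, with the lowest value in NM1 KO 2, the library that was highest for 6 of the other genes. The log2 fold change was -0.15 (SE 0.13, 95% confidence interval -0.44 to 0.13, adjusted p = 0.602) and was negative in all 20 alternative analyses.

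Fermt3 (ENSMUSG00000024965, chromosome 19, 6998958 to 7019469, minus strand) had 335, 408 and 359 CPM in NM1 KO 1 to 3, against 311, 348 and 314 CPM in NM1 WT 1 to 3. NM1 KO 1 lay below NM1 WT 2, and the gene missed the threshold (log2 fold change 0.18, SE 0.13, adjusted p = 0.514). Of its annotated exon bases 1.54% are shared with Trpt1 on the opposite strand. Set against talin-1, its partner on the integrin tail, the Fermt3 count ratio was 0.420, 0.493 and 0.433 in NM1 KO and 0.382, 0.393 and 0.410 in NM1 WT. These values did not overlap (exact permutation p = 0.1, 0.175 adjusted over the 7 ratios). The Apbb1ip to Tln1 ratio overlapped, at 0.119 ± 0.0150 in NM1 KO and 0.132 ± 0.00482 in NM1 WT (SD, n = 3 each, exact permutation p = 0.3).

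**Figure D2:**
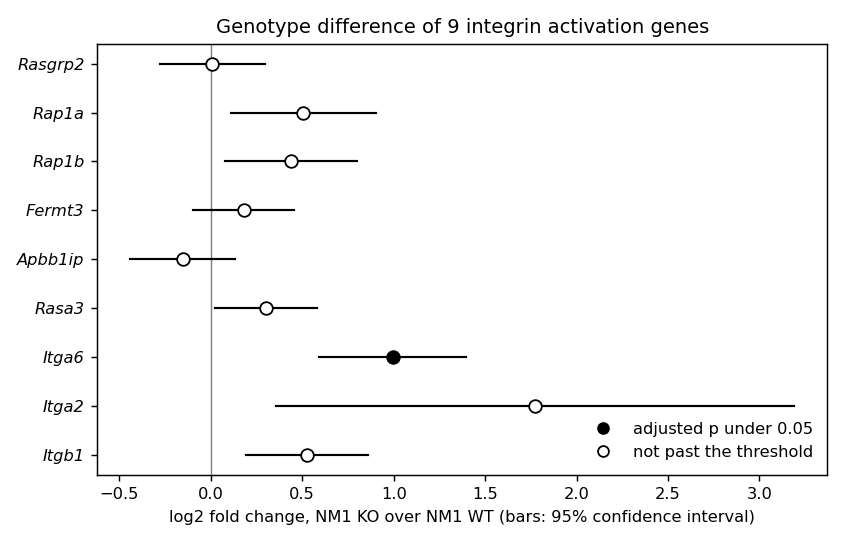
Log2 fold change of each of the 9 genes, NM1 KO over NM1 WT (horizontal axis), with 95% confidence intervals from edgeR's quasi-likelihood fit and a filled point where the adjusted p is under 0.05. Only the Itga6 point, at 0.99, is filled, and the intervals of Rasgrp2, Fermt3 and Apbb1ip include 0.

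Itga6, the alpha6 subunit of laminin receptors, rose 1.99-fold. Itga6 (ENSMUSG00000027111, chromosome 2, 71745616 to 71858416, plus strand) had 79.5, 128 and 78.3 CPM in NM1 KO 1 to 3, against 47.2, 46.4 and 50.2 CPM in NM1 WT 1 to 3. The NM1 WT values lay close together and all NM1 KO values were above them. The log2 fold change was 0.99 (SE 0.18, 95% confidence interval 0.59 to 1.40, adjusted p = 0.0371), rank 70 by p among the tested genes. Within the libraries with Y-linked transcripts the values were 79.5 and 128 CPM in NM1 KO mice against 46.4 CPM in NM1 WT, and within those without them 78.3 CPM in NM1 KO mice against 47.2 and 50.2 CPM in NM1 WT. Adjusted for the presence of Y-linked transcripts, the log2 fold change was 0.92 (adjusted p = 0.0770). Leaving out NM1 KO 2 gave 0.72 (adjusted p = 0.0701), leaving out NM1 WT 1 gave 0.98 (adjusted p = 0.174) and leaving out NM1 WT 3 gave 1.02 (adjusted p = 0.0943). Without NM1 WT 2, the library that stood apart, the gene passed (0.98, adjusted p = 0.0496). Over the 20 alternatives the adjusted p of Itga6 ran between 1.2e-08 and 0.174.

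Itgb1, the beta1 partner, differed less. Itgb1 (ENSMUSG00000025809, chromosome 8, 128685654 to 128733200, plus strand) had 262, 363 and 255 CPM in NM1 KO 1 to 3, against 186, 219 and 206 CPM in NM1 WT 1 to 3. All NM1 KO values were above all NM1 WT values, and the log2 fold change of 0.53 (SE 0.15) had an adjusted p of 0.128. DESeq2's Wald test gave an adjusted p of 0.0307 for the same difference. Without NM1 KO 2 the log2 fold change was 0.35 (adjusted p = 0.477), and the adjusted p ran between 0.00696 and 0.477 over 20 alternatives.

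The ratio of Itga6 to Itgb1 counts was 0.303, 0.354 and 0.307 in NM1 KO and 0.254, 0.211 and 0.244 in NM1 WT. On the log2 scale the ratio was 0.44 higher in NM1 KO, with no overlap (exact permutation p = 0.1, 0.175 adjusted over the 7 ratios). Beta4 (Itgb4), the other partner of alpha6, was scarce, at 1.58 ± 0.358 CPM in NM1 KO mice and 1.36 ± 0.930 CPM in NM1 WT.

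Itga2, the alpha2 subunit of the collagen receptor, was barely detected. Itga2 (ENSMUSG00000015533, chromosome 13, 114833081 to 114932100, minus strand) had 36, 32 and 20 counts in NM1 KO 1 to 3, against 8, 6 and 4 counts in NM1 WT 1 to 3, or 1.57, 1.47 and 0.938 CPM against 0.543, 0.348 and 0.262 CPM. Every NM1 KO value was above every NM1 WT value. The log2 fold change was 1.77, with a wide interval (SE 0.65, 95% confidence interval 0.36 to 3.19, adjusted p = 0.199). Its NM1 KO counts alone carried it past the filter on low counts. Itga2 left the test when counts were halved or when a mean of at least 1 CPM was required. Its ratio to Itgb1 did not overlap between genotypes (log2 ratio -7.81 ± 0.368 in NM1 KO, -9.11 ± 0.620 in NM1 WT, SD, n = 3 each, exact permutation p = 0.1), and alpha2 counts were under 1% of beta1 counts in every library.

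**Figure D3:**
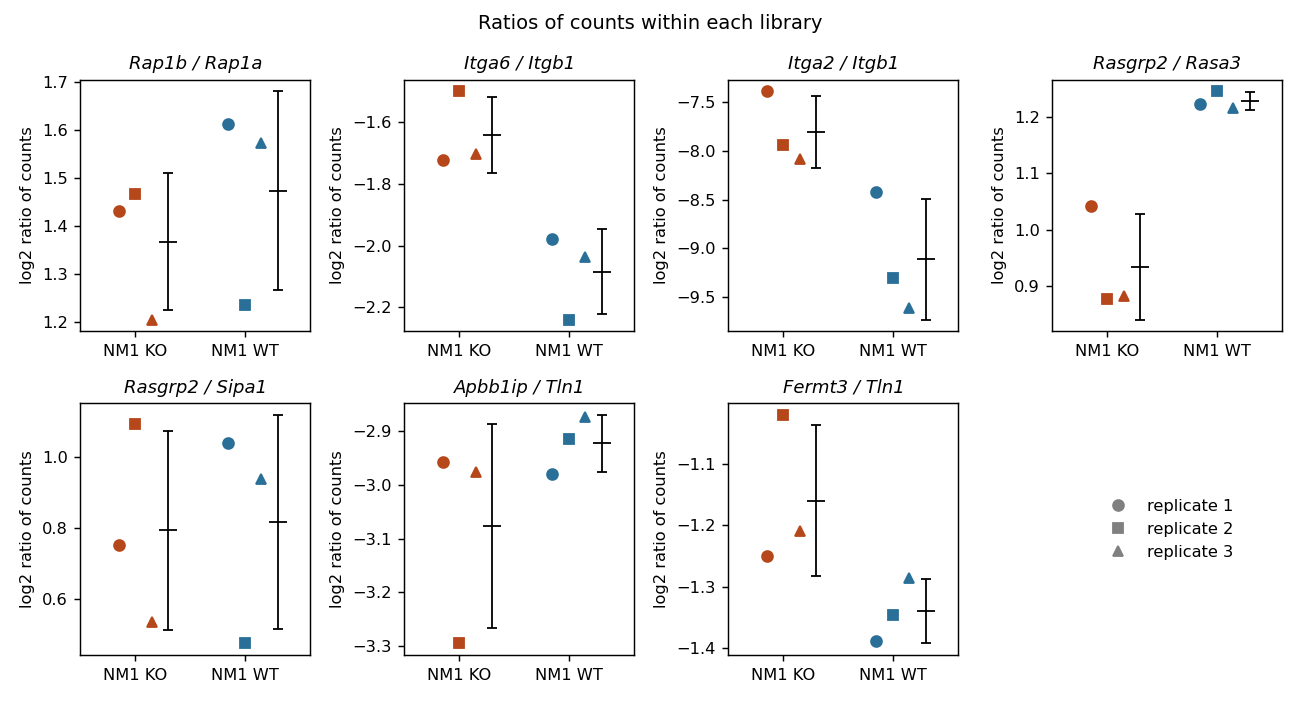
Log2 ratio of counts of gene pairs within each library (vertical axes), for 3 NM1 KO and 3 NM1 WT mice, with the mean ± SD beside each group. Itga6 to Itgb1, Itga2 to Itgb1, Rasgrp2 to Rasa3 and Fermt3 to Tln1 do not overlap between genotypes, and the other 3 ratios do.

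The 9 genes were also set against the summed CPM of the 15 platelet and megakaryocyte markers of the same library. The largest terms of the sum in NM1 KO were Ppbp (mean 990 CPM), Thbs1 (610), Itga2b (608) and Pf4 (396). Their fold changes ran from 1.67 (Itga2b) to 3.99 (Ppbp), so the sum weighs the markers unevenly. Rasgrp2 came to 135, 74.9 and 135 per 1000 CPM of marker sum in NM1 KO 1 to 3 and to 321, 267 and 251 in NM1 WT 1 to 3, a log2 difference of -1.33. Itgb1 came to 91.7, 70.5 and 114 in NM1 KO and to 161, 169 and 147 in NM1 WT (log2 difference -0.81). Itga6 came closest to keeping pace with the markers, at 27.8, 25.0 and 34.9 in NM1 KO and 40.8, 35.7 and 35.9 in NM1 WT (log2 difference -0.37). For 8 of the 9 genes all NM1 KO values were below all NM1 WT values, and Itga2 was the exception (log2 difference 0.49, overlapping). The share of all tested genes that lies lower in this way is not given here, so this count has no background to be read against. All 9 comparisons share the same marker sum, which was itself higher in every NM1 KO library, so a gene of equal CPM in both genotypes comes out lower by this measure. The values say how each gene stood against the markers and are given as a description, with no test.

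**Figure D4:**
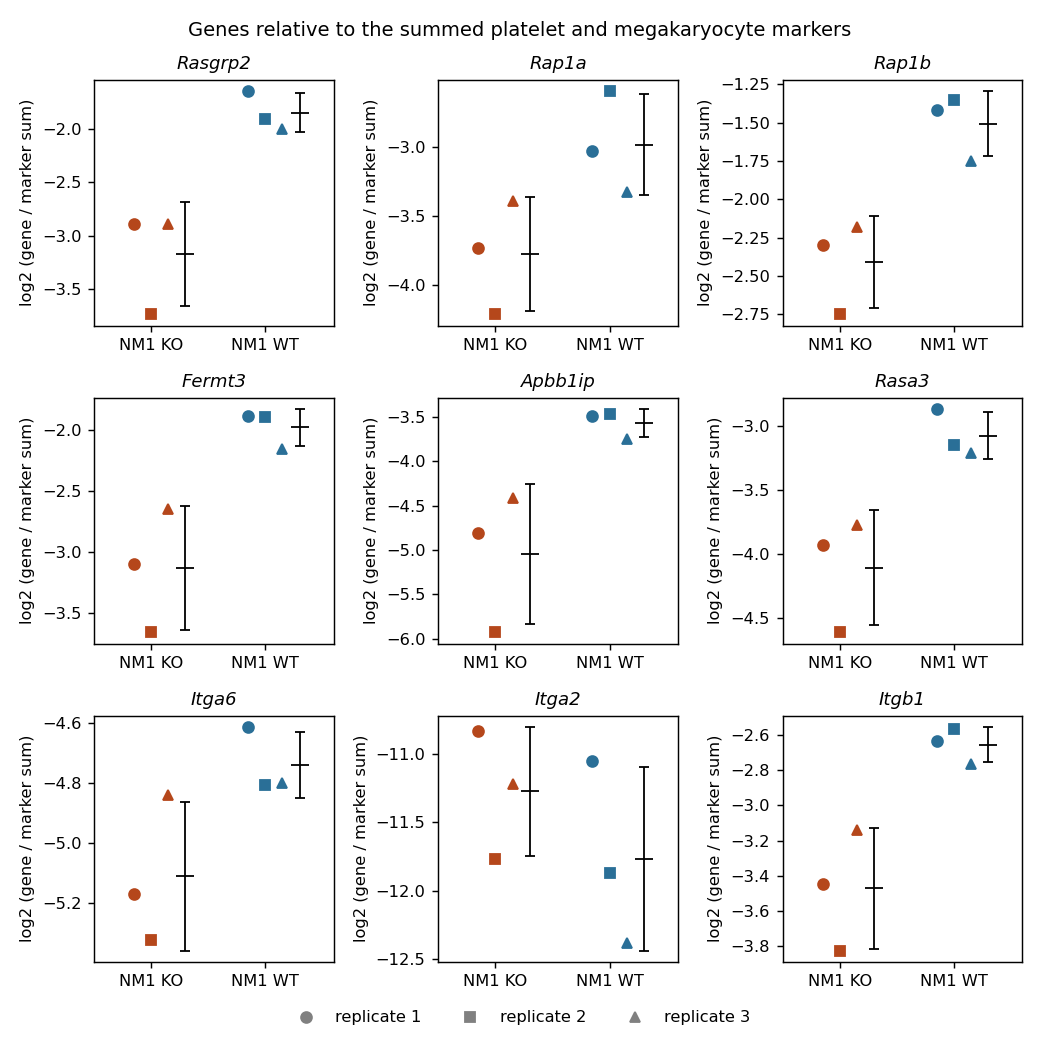
Log2 of each gene's CPM over the summed CPM of 15 platelet and megakaryocyte markers (vertical axes) in 3 NM1 KO and 3 NM1 WT libraries, with the mean ± SD beside each group. Every gene but Itga2 lies lower in NM1 KO, by between 0.37 (Itga6) and 1.48 (Apbb1ip) on the log2 scale.

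The genes whose log2 CPM followed a member most closely over the 6 libraries, out of 13621 compared with a mean of at least 1 CPM, were named by Pearson's r, a description over 6 points that share depth and scaling. Among the closest to Itga6 was Vwf, the von Willebrand factor gene (r = 0.995). Vwf had 151, 246 and 142 CPM in NM1 KO mice and 71.9, 79.7 and 85.6 CPM in NM1 WT. It rose (adjusted p = 0.0260), though it did not pass with NM1 WT 1 (0.129) or NM1 WT 3 (0.0616) left out. For Rasgrp2 the closest were the mitochondrial transcripts mt-Atp6 (r = 0.997) and mt-Rnr2 (0.995) and the transcription factor gene Stat4 (0.995), all with their lowest value in NM1 KO 3. Serpinb10 (0.996) and Mosmo (0.990) were among the closest to Fermt3.

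Around these genes, 5 further lists of the pathway held 102 tested genes, of which 3 rose and 0 fell, against 0.591% and 0.186% of all tested genes. At an unadjusted p under 0.05, 18 of the 102 were higher and 15 lower, against 8.44% and 8.32% of all tested genes. Of 23 tested Rap1 exchange factors, GTPase-activating proteins and effectors, 0 rose and 0 fell in the edgeR quasi-likelihood fit (0 higher and 2 lower at an unadjusted p under 0.05), with a median log2 fold change of 0.04. Rasgrp4, a relative of Rasgrp2 found in mast cells and neutrophils, had 138, 82.6 and 126 CPM in NM1 KO mice against 239, 192 and 170 CPM in NM1 WT mice (log2 fold change -0.79, adjusted p = 0.0845), and DESeq2 called it lower. Of its exon bases 18.2% are shared with other annotated genes. Rapgef4, the cyclic AMP-activated exchange factor Epac2, had 1.41 ± 0.554 CPM in NM1 KO mice and 3.65 ± 1.89 CPM in NM1 WT mice (adjusted p = 0.232).

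Of 22 tested partners of talin, kindlin and the integrin tail, 0 rose and 0 fell, with a median of 0.00. At an unadjusted p under 0.05, 4 were higher and 3 lower, against 8.44% and 8.32% of all tested genes. Tln1 had 796, 828 and 829 CPM in NM1 KO mice and 814, 886 and 764 CPM in NM1 WT mice, with a log2 fold change of -0.01 whose sign differed between alternatives. Parvb, the beta-parvin of the ILK, PINCH and parvin complex at integrin tails, had 295, 401 and 272 CPM in NM1 KO mice against 196, 187 and 220 CPM in NM1 WT mice (log2 fold change 0.68, adjusted p = 0.0743). Also of that complex, and picked after their values were seen, were Lims1 (PINCH1, log2 fold change 0.51) and Rsu1 (Ras suppressor 1, 0.58), neither past the threshold (adjusted p = 0.127 each) and both without overlap. The other parvin genes lay on the negative side, with overlap. Parva had 7.63 ± 1.08 CPM in NM1 KO mice and 10.8 ± 4.78 CPM in NM1 WT mice (SD, n = 3 each, log2 fold change -0.50, adjusted p = 0.459), and Parvg 162 ± 16.8 CPM in NM1 KO mice and 188 ± 23.7 CPM in NM1 WT mice (-0.22, adjusted p = 0.462). Ilk itself, the kinase at the centre of the complex, had 4 to 10 counts in every library, and 89.7% of its annotated exon bases are shared with Rrp8 and Taf10, so its count is no measure of its level. Fyb, the adaptor ADAP that links SLP-76 to integrin activation, had 117, 88.4 and 92.5 CPM in NM1 KO mice against 166, 120 and 195 CPM in NM1 WT mice (log2 fold change -0.69, adjusted p = 0.104).

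Of 29 tested genes of the signals upstream of Rap1, 1 rose and 0 fell, with a median of 0.17. F2rl2, the thrombin co-receptor PAR3 of mouse platelets, rose to 42.6, 82.9 and 49.4 CPM in NM1 KO mice, against 17.1, 24.5 and 24.5 CPM in NM1 WT mice (log2 fold change 1.40, adjusted p = 0.0302). Src, the tyrosine kinase that binds the beta3 tail, had 36.1, 55.4 and 29.2 CPM in NM1 KO mice against 15.7, 20.7 and 20.2 CPM in NM1 WT mice (log2 fold change 1.09, adjusted p = 0.0513). At an unadjusted p under 0.05, 9 of the 29 were higher and 5 lower, against 8.44% and 8.32% of all tested genes. Gp6, among the 9, is also in the list of platelet and megakaryocyte markers.

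Of 21 other tested integrin subunits, 2 rose and 0 fell, with a median of 0.05. At an unadjusted p under 0.05, 5 were higher and 4 lower, against 8.44% and 8.32% of all tested genes. Itgb3, the beta3 subunit of the platelet fibrinogen receptor, rose to 411, 620 and 369 CPM in NM1 KO mice, against 186, 209 and 231 CPM in NM1 WT mice (log2 fold change 1.16, adjusted p = 0.0230). Its partner Itga2b, which marks megakaryocytes, had 585, 791 and 448 CPM in NM1 KO mice against 359, 297 and 439 CPM in NM1 WT mice (0.74, adjusted p = 0.115). Itgad, the alphaD subunit of a leukocyte integrin on macrophages, rose to 11.6, 25.7 and 14.7 CPM in NM1 KO mice, against 4.89, 6.37 and 4.98 CPM in NM1 WT mice (1.68, adjusted p = 0.0356), with 19.7% of its exon bases shared with other annotated genes. Of those on the lower side, Itgb7, the beta7 subunit of lymphocyte homing integrins, had 133, 92.6 and 119 CPM in NM1 KO mice against 161, 182 and 185 CPM in NM1 WT mice, without overlap (-0.61, adjusted p = 0.0848). Itga3 (-1.30), Itga7 (-1.43) and Itgam (-0.36), also lower at an unadjusted p under 0.05, overlapped between genotypes. Of the Itgam exon bases 68.7% are shared with another annotated gene, Gm49368. The leukocyte beta2 subunit Itgb2 had 521 ± 57.1 CPM in NM1 KO mice and 633 ± 135 CPM in NM1 WT mice (adjusted p = 0.422).

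Among the laminin chains, ligands of the alpha6 integrins, 7 of 11 were tested, 0 rose and 0 fell in the edgeR quasi-likelihood fit (0 higher and 1 lower at an unadjusted p under 0.05; DESeq2 called Lama5 lower), with a median of -0.31. Lama5, the laminin alpha5 chain, had 8.31, 6.08 and 5.16 CPM in NM1 KO mice against 16.8, 8.23 and 15.1 CPM in NM1 WT mice (log2 fold change -1.03, adjusted p = 0.132). Lamb1 had 8.98 ± 0.478 CPM in NM1 KO mice and 11.4 ± 3.68 CPM in NM1 WT mice (adjusted p = 0.565). Over the 5 lists the number of genes that rose was 1 (Itgb3) with NM1 KO 2 left out, 9 with NM1 KO 3 left out, and 0 with either NM1 WT 1 or NM1 WT 3 left out, and 2 genes (Lama5 and Fyb) fell with NM1 WT 2 left out.

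**Figure D5:**
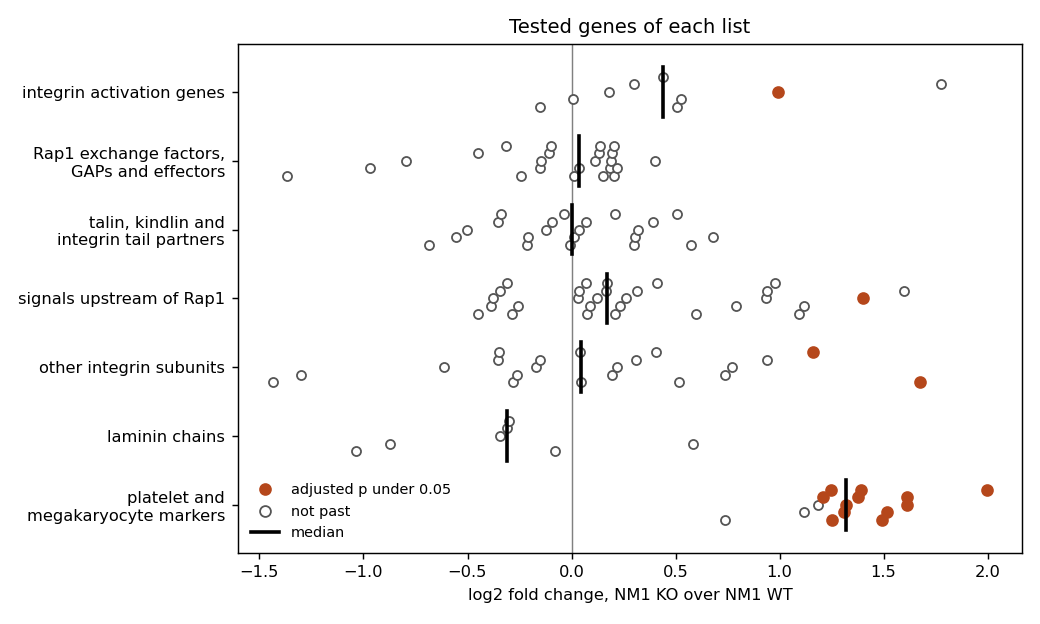
Log2 fold change, NM1 KO over NM1 WT (horizontal axis), of the tested genes of each list, with filled points for an adjusted p under 0.05 and a bar at the list's median. The 9 integrin activation genes have a median of 0.44, between the other pathway lists (-0.31 to 0.17) and the platelet and megakaryocyte markers (1.32).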

How the data were processed

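RNA of whole bone marrow was sequenced from 3 NM1 KO and 3 NM1 WT mice. The authors deposited unnormalised counts for each Ensembl gene. HTSeq, HISAT2 2.0.4, SAMtools 0.1.19, FastQC and Trimmomatic 0.36 are the tools, and GRCm38 and mm10 the builds, that the submitters' processing notes name. Annotation release, strandedness, read length and counting mode were not stated, so a gene and its overlapping or antisense neighbour may share reads. Of nonzero counts 79.3 to 81.5% were even, as when both mates of a pair are counted, so halved counts were tried.

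Genes were matched by Ensembl ID to GENCODE M21. Genotypes were compared with edgeR 4.0.16 (R 4.3.3): filterByExpr defaults, TMM factors, the quasi-likelihood test with genotype as the only term, and Benjamini-Hochberg adjustment over 15069 genes with a threshold of 0.05. All 9 genes passed the filter. A CPM of 1 corresponded to 14.7 to 23.0 counts. Ratios of gene pairs were tested with exact two-sided permutation over mice. Levels per kb use the longest APPRIS principal transcript. Each library is a separate mouse. DESeq2 1.42.0, limma-voom (limma 3.58.1), other scalings and filters, and left-out libraries were alternatives. Named genes are the 9 members, Tln1, the members of smallest p of each list (up to 4 past the threshold, otherwise 2), 3 close followers of Rasgrp2, Fermt3 and Itga6, and Itga2b and Pf4. Some genes that this rule names are not reported here. Other genes were named after their values were seen. The members and lists were chosen with earlier results of these data known.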

Additional observations from a re-analysis of the deposited data

How the results depend on the processing

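Itga6 kept its direction in 20 of 20 alternatives and passed in 15. The number of the 9 genes that rose was 1 in the reported fit, 4 with no low-count filter (Rap1a, Rap1b, Itga6 and Itgb1), 2 with DESeq2 (Itga6 and Itgb1), 0 with limma-voom, 0 with a covariate for the Y-linked state and 0 to 2 with a library left out, and 0 fell in any of them. Of all tested genes 0.591% rose in the reported fit, 2.55% with no low-count filter and 2.70% with DESeq2. The share was 1.98% with the likelihood ratio test, 0.153% with limma-voom, 0.299% with the Y-linked state and 0.0964 to 1.02% with a library left out. The 3 that rose in the other pathway lists became 15 with no low-count filter, 12 with DESeq2, 10 with the likelihood ratio test, 6 with total counts only, 6 without haemoglobin, immunoglobulin and mitochondrial genes, 1 with limma-voom and 0 to 9 with a library left out. The number that fell there was 6 with no low-count filter, 5 with DESeq2, 3 with the likelihood ratio test and 0 to 2 with a library left out. Among all tested genes 28 fell in the reported fit, 517 of 24358 with no low-count filter, 394 with DESeq2 and 243 with the likelihood ratio test. Over all genes 117 passed in the reported fit, 1138 with no low-count filter, 794 with DESeq2, 541 with the likelihood ratio test, 207 without haemoglobin, immunoglobulin and mitochondrial genes, 60 with the Y-linked state, 37 with limma-voom and 26 to 344 with a library left out. The causes were not tested.

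Values near 0 changed sign. The Rasgrp2 log2 fold change was -0.011 with upper-quartile factors, -0.00088 with limma-voom, -0.051 with the Y-linked state and -0.054 to 0.115 with a library left out. That of Tln1 was 0.034 with total counts only, 0.0098 with no low-count filter and -0.063 to 0.056 with a library left out, and that of Sipa1 was -0.043 with the Y-linked state and -0.074 to 0.188 with a library left out.

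Both genotypes carry replicate numbers 1 to 3, which the labels do not explain. Deviations of same-numbered libraries correlated at 0.0636, 0.115 and 0.0609. These values are small, but each library correlated best with its own number, so they cannot show whether the numbers mark pairs. The reported fit did not take them as pairs. With the replicate number as a block, 421 genes passed in all, 2 of the 9 rose (Rap1a and Itga6), 10 other pathway genes rose and 2 fell, and the Rasgrp2 log2 fold change was -0.0010. The ratios and the values relative to platelet markers moved by less than 1 SD in every alternative run. Itga2, with at most 36 counts, is limited by depth.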
